A study of Mus musculus with 6 samples.

Results

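Secretoglobins are small secreted proteins that form disulfide-linked dimers, and BPI fold-containing proteins are secreted lipid-binding proteins. In the airway both are released onto the epithelial surface by club cells, the dome-shaped secretory cells of the bronchioles, and by other secretory cells and glands. They are known for lining the airway with proteins that dampen inflammation, bind lipids and act against microbes. The 5 mRNAs described here were Scgb1a1, Scgb3a1, Scgb3a2, Bpifa1 and Bpifb1, chosen by name out of 18437 mRNAs listed in at least 1 library. Each was found in the deposited values through the Ensembl gene ID that carries its symbol.

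Their ribosome density was measured by Ribo-seq, which sequences the mRNA fragments protected by translating ribosomes, in wild-type C57BL/6J mice aged 4 weeks that had received no treatment. Lung and heart, brain and kidney, and colon and small intestine gave 1 library each, so there is no replicate error and no test between tissues. The sources used here do not give the number of mice behind each library. Density is in RPKM, the reads on the coding sequence (CDS) divided by its length and by the total reads on all CDSs. RPKM times CDS length returned whole reads, between 4504853 and 10635031 per library, and the intervals below cover counting error only.

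The labels were checked with 3 marker mRNAs per tissue. All markers of lung and of heart peaked under their own label, while for the other 4 tissues every marker peaked elsewhere. Those of brain were highest in the library labelled small intestine, those of small intestine under the brain label, those of kidney under the colon label and those of colon under the kidney label. The libraries are therefore named by their labels only. The comparison that matters most here, lung against the rest, rests on a library whose alveolar markers match its label, with 12635 RPKM of Ager, a receptor of alveolar type 1 cells.

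The secretoglobins are encoded by short mRNAs on separate chromosomes. Scgb1a1 (ENSMUSG00000024653) lies at chr19:9061000-9065326 on the minus strand of GRCm39, with a CDS of 288 nt in 3 coding exons. Scgb3a1 (ENSMUSG00000064057) lies at chr11:49549630-49555945 on the plus strand, with a CDS of 312 nt. The CDS of Scgb3a2 has 417 nt. Bpifa1 (ENSMUSG00000027483) and Bpifb1 (ENSMUSG00000027485) lie on the plus strand of chromosome 2, 41.6 kb apart, with Bpifa5 between them. They are at chr2:153984800-153991139 and chr2:154032738-154062289, with CDSs of 834 nt in 7 coding exons and 1422 nt in 15. The CDSs of all secretoglobins were thus far shorter than the median of 1323 nt over 18154 CDSs, and that of Bpifb1 was close to it. Every 28-nt fragment starting in the 5 CDSs occurred once among the listed mRNAs, while copies that differ by a mismatch and mRNAs that are not listed were not searched.

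Promoter windows of RefSeq, which span 250 bases before to 50 bases after each start on GRCm38.p6, were listed for 3 of the 5 mRNAs, with 1 start each for Scgb3a1 and Bpifa1 and 2 starts for Bpifb1. Scgb1a1 and Scgb3a2 had no entry. The windows were searched on both strands for TATAAA, the letters of the TATA box. They were also searched for letters of the kind bound by forkhead factors, a family that includes the airway regulator Foxa2, namely TATTTAC, its variant TGTTTAC, and a further form, TGTTTGC. Every window held at least 1 of these forkhead-type motifs, which 11.2% of all 32851 windows did. The motifs were chosen after the files were read, so this count only describes the windows and is no test. The motif sites of Bpifa1 and Bpifb1 are printed below, with the motif in capitals, to show how alike the sites of the 2 genes are beyond it.
Bpifa1, 127 bases before the start, chr2:154142746-154142775: tgacaatTATTTACTTTGGAGAgccctgaa
Bpifb1, 110 bases before the downstream start, chr2:154200263-154200292: ctgcaaaTATTTACCTTGGAGAcctcagcc
Bpifb1, 43 bases before the upstream start, chr2:154190764-154190793: ctggcccccaaGCAAACAccaagatataca
The longer run TATTTACNTTGGAGA, in which N is any base, was noticed in the first 2 of these windows after they were read. It was held by 2 of the 32851 windows (0.00609%), namely these, whereas TATTTAC alone was held by 3.04% and TGTTTGC, shown here as its reverse complement GCAAACA, by 5.07%. The capitals in the Bpifa1 and the downstream Bpifb1 sites mark that longer run. TATAAA was found 29 bases before the start of Bpifa1 and in no other window of the 3 genes, against 13.6% of all windows. The mRNA of Bpifb1 listed by the authors begins at the upstream start, and the RPKM values do not show which start was used. For Scgb3a1 the reverse complement GCAAACA stood 55 bases before the RefSeq start, but that start lies 74 bases inside the mRNA listed by the authors, so this match falls within the mRNA and not before it.

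Scgb1a1, the main secretory protein of club cells, had the highest ribosome density of the 5 in every library. It had 20639 RPKM (45950 reads) in the lung-labelled library, where it ranked 2 among all mRNAs and took 0.594% of the reads (95% Wilson interval 0.589 to 0.600). It had 153 RPKM (360 reads) in the heart-labelled library, 77.1 RPKM (100 reads) in the colon-labelled, 44.4 RPKM (97 reads) in the kidney-labelled, 40.2 RPKM (123 reads) in the brain-labelled and 4.54 RPKM (10 reads) in the library labelled small intestine. The lung-labelled library stood apart from all others, and below it only the kidney-labelled and brain-labelled libraries had overlapping intervals of their share of reads. The fold of the lung-labelled library was 135 over the heart-labelled (exact 95% interval 122 to 150), the highest of the other 5, and 4544 over the library labelled small intestine (2471 to 9477). Scaling by median-of-ratios size factors, which lowers the lung-labelled library by 0.64 on the log2 scale against the heart-labelled one, gave 86.9, and without the heart-labelled library the fold over the highest remaining one was 268.

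Scgb3a2 (ENSMUSG00000038791), a secretoglobin known from developing and adult bronchioles and encoded at chr18:43897354-43900474 on the plus strand of GRCm39, came next in the lung-labelled library. It had 872 RPKM (2812 reads) there, 4.40 RPKM (15 reads) in the heart-labelled library, 0.676 RPKM (3 reads) in the brain-labelled, 0.532 RPKM (1 read) in the colon-labelled and 0.316 RPKM (1 read) in the kidney-labelled. No read was found in the library labelled small intestine, where 3 reads would give 0.941 RPKM. Outside the lung-labelled library only the heart-labelled one held more than 3 reads. The fold over it was 198 (120 to 355), and the fold over the library labelled small intestine was at least 927. Median-of-ratios scaling gave 128 over the heart-labelled library. Without the heart-labelled library, and with a floor of 3 reads, the fold over the highest remaining library was 546.

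Scgb3a1, a secretoglobin of larger airways, had the highest relative level outside the lung-labelled library. It had 372 RPKM (897 reads) there and 9.40 RPKM (24 reads) in the heart-labelled library. The colon-labelled and kidney-labelled libraries held 1 read each (0.711 and 0.423 RPKM), and none was found in the brain-labelled library or in that labelled small intestine, where 3 reads would give 0.904 and 1.26 RPKM. The lung-labelled level was 39.6-fold that of the heart-labelled library (26.4 to 62.1), at least 411-fold that of the brain-labelled and at least 296-fold that of the library labelled small intestine. This was the smallest fold over the highest other library among the 5 mRNAs. It was 25.5 with median-of-ratios scaling and 174 without the heart-labelled library, with a floor of 3 reads.

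Bpifa1, also called SPLUNC1, is a secreted protein of the upper airway that acts on the surface liquid and on bacteria. It had 221 RPKM (1426 reads) in the lung-labelled library and between 1 and 4 reads in each of the heart-labelled (0.586 RPKM), kidney-labelled (0.316 RPKM), colon-labelled (0.266 RPKM) and brain-labelled (0.113 RPKM) libraries. It had no reads in the library labelled small intestine, where 3 reads would give 0.471 RPKM. These counts are too low to order the libraries other than lung. The fold over the heart-labelled library, with 4 reads, was 377 (147 to 1387). With every library of fewer than 3 reads set at the RPKM of 3 reads, the highest other library was the colon-labelled, the shallowest, and the fold was 277.

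Bpifb1, also called LPLUNC1, is a larger secreted relative of Bpifa1. It had 203 RPKM (2234 reads) in the lung-labelled library, 2.23 RPKM (26 reads) in the heart-labelled, 0.312 RPKM (2 reads) in the colon-labelled and 0.278 RPKM (3 reads) in the kidney-labelled. No read was found in the brain-labelled library or in that labelled small intestine, where 3 reads would give 0.198 and 0.276 RPKM. As for Scgb3a1 and Scgb3a2, the heart-labelled library was second and the rest were near or at 0. The fold over it was 91.0 (61.9 to 140), and the lung-labelled level was at least 1024-fold that of the brain-labelled library. The fold over the highest other library was 58.5 with median-of-ratios scaling, and 434 without the heart-labelled library and with a floor of 3 reads (651 over the 2 reads of the colon-labelled library as measured, with an interval of 180.0 to 5378).

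**Figure D1:**
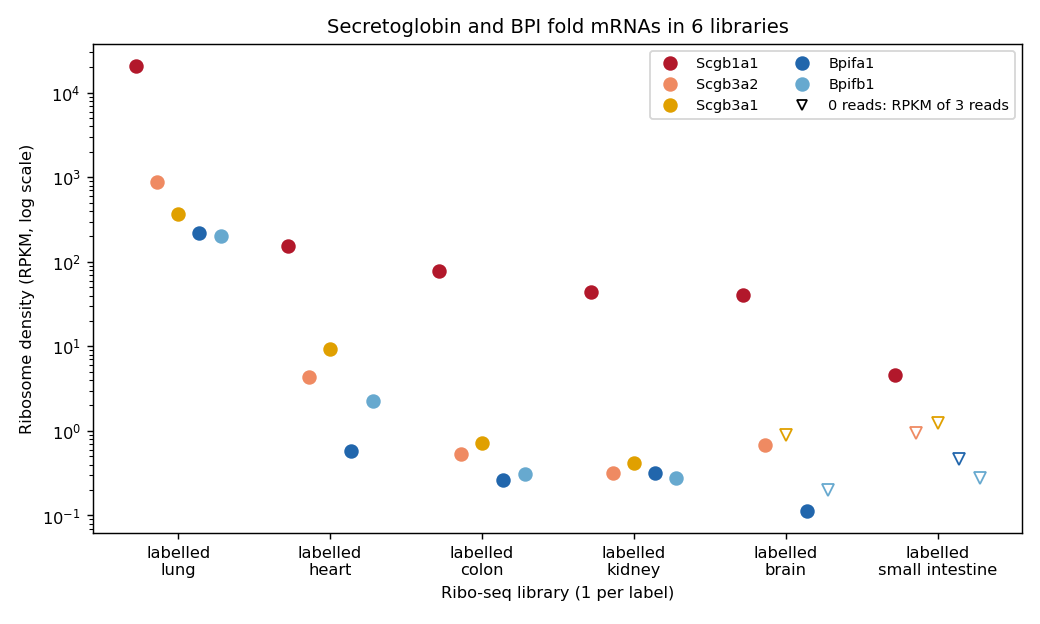
Ribosome density of the 5 mRNAs (RPKM, log scale) in the 6 Ribo-seq libraries, 1 per label. Filled circles are measured values, and open triangles stand at the RPKM that 3 reads would give where an mRNA had 0 reads. All 5 are highest in the lung-labelled library, and Scgb1a1 is the only one with more than 3 reads in every library.

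All 5 mRNAs were at least 10-fold higher in the lung-labelled library than in each of the other 5, with libraries under 3 reads set at 3 reads. Of 15432 mRNAs with at least 10 reads over the 6 libraries, 260 (1.68%) passed the same fold. At 100-fold, 3 of the 5 mRNAs passed (Bpifa1, Scgb3a2 and Scgb1a1), against 16 of all mRNAs (0.104%). With median-of-ratios scaling Scgb1a1 no longer passed 100-fold, which left 2 of the 5, against 7 of all mRNAs. Since high counts make large folds easier to measure, the share past 10-fold was also taken among the 6992 mRNAs with at least 100 reads in the lung-labelled library, where it was 2.73%. Among the 1437 mRNAs with at least 1000 reads there it was 4.45%. In bulk tissue, fewer cells of a type and less RNA per cell cannot be told apart, and without matched mRNA levels, neither can more mRNA and more ribosomes per mRNA.

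**Figure D2:**
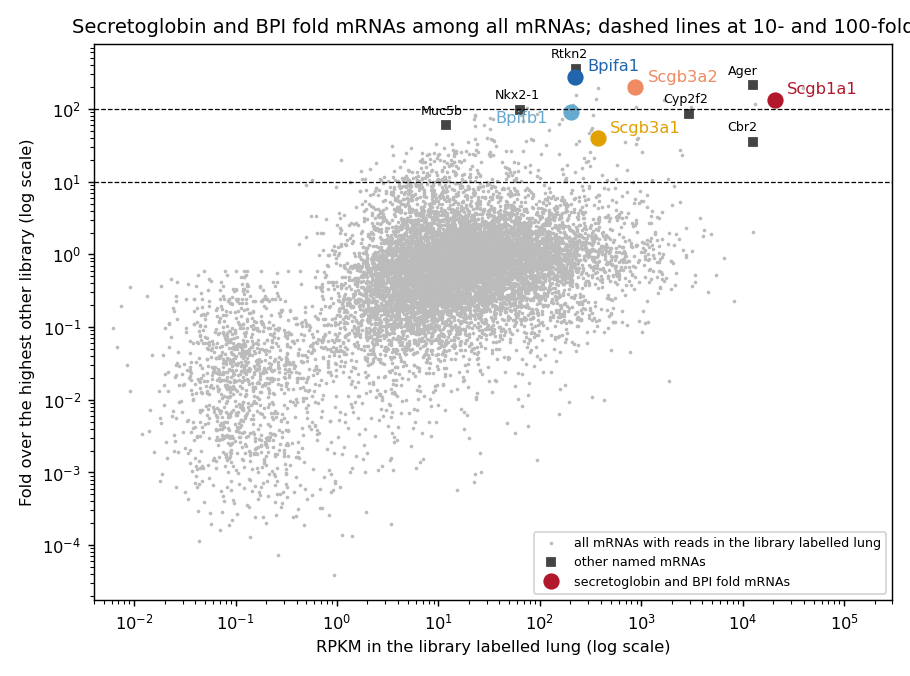
Each point is an mRNA with reads in the lung-labelled library, by its RPKM there (log scale) and the fold of that library over the highest of the other 5 (log scale, libraries under 3 reads set at 3 reads). The 5 coloured circles lie between 39.6-fold and 277-fold, and dashed lines mark 10-fold and 100-fold.

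Within the lung-labelled library the 5 levels, which are per CDS length and so can be set side by side, spanned 102-fold. Scgb1a1 had 23.7 times the RPKM of Scgb3a2 (22.8 to 24.6), 55.5 times that of Scgb3a1 (51.9 to 59.4), 93.3 times that of Bpifa1 (88.5 to 98.4) and 102 times that of Bpifb1 (97.3 to 106). Scgb3a2 had 3.94 times the RPKM of Bpifa1 (3.70 to 4.21), and Scgb3a1 1.68 times (1.54 to 1.83). Bpifa1 and Bpifb1 lay closest, at a ratio of 1.09 (1.02 to 1.16). Ordered by reads in place of RPKM, Bpifb1 came before Bpifa1 and Scgb3a1, because its CDS is longer. Together the 5 mRNAs took 0.690% of all reads in this library (0.684 to 0.696), and 86.2% of those reads were on Scgb1a1.

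The level outside the lung-labelled library was then taken for each mRNA as a percent of its level inside it. In the heart-labelled library this was 2.53% for Scgb3a1 (1.61 to 3.79), 1.10% for Bpifb1 (0.717 to 1.62), 0.740% for Scgb1a1 (0.665 to 0.821), 0.504% for Scgb3a2 (0.282 to 0.833) and 0.265% for Bpifa1 (0.0721 to 0.680). The 5 mRNAs did not keep a single ratio there, since the interval of Scgb3a1 lay above those of Scgb1a1, Scgb3a2 and Bpifa1. Cbr2 and Cyp2f2, enzymes abundant in club cells, stood at 2.86% (2.74 to 2.98) and 0.998% (0.896 to 1.11) in the same library. The alveolar mRNAs Sftpc, Sftpa1 and Ager stood at 0.509%, 0.846% and 0.474% there. Others were higher, with Sftpb at 2.17% (1.65 to 2.79) and Abca3 at 4.47% (3.92 to 5.08). Abca3 was not particular to the lung-labelled library, since it stood at 74.7% of that level in the colon-labelled library. Without Abca3, the interval of Sftpb still lay above those of Sftpc, Sftpa1 and Ager, so the alveolar mRNAs kept no single ratio either. In the other direction, the heart markers Myh6, Tnnt2 and Actc1 had 77.1, 193 and 8.46 RPKM in the lung-labelled library. Their levels in the heart-labelled library were 6616, 20788 and 2694 RPKM. The alveolar mRNAs and the airway mRNAs thus fell in an overlapping range in the heart-labelled library, and the part of lung RNA in the secretoglobin reads was not tested.

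In the other libraries only Scgb1a1 had enough reads for such a comparison. It stood at 0.373% of its lung-labelled level in the colon-labelled library (0.304 to 0.454), 0.215% in the kidney-labelled (0.174 to 0.263), 0.195% in the brain-labelled (0.162 to 0.232) and 0.0220% in that labelled small intestine (0.0106 to 0.0405). Sftpc, the surfactant protein of alveolar type 2 cells, stood at 0.304%, 0.0631%, 0.0297% and 0.00976% in the same order. Relative to Sftpc, Scgb1a1 was thus at 1.23 times in the colon-labelled library (0.970 to 1.54), 3.41 times in the kidney-labelled (2.57 to 4.52) and 6.54 times in the brain-labelled (4.85 to 8.88). The corresponding value was 1.45 in the heart-labelled library (1.29 to 1.64), so only the colon-labelled interval, and the wide one of the library labelled small intestine (0.922 to 5.21), included 1. Other alveolar mRNAs gave other values. Against Sftpa1, Scgb1a1 stood at 2.56 times in the kidney-labelled library (1.84 to 3.57) and 10.2 times in the brain-labelled (6.33 to 17.3). Against Sftpb, another surfactant protein, Scgb1a1 stood at 0.802 times in the kidney-labelled library (0.375 to 2.05) and 0.547 times in the brain-labelled (0.308 to 1.06). Against Sftpd it stood at 0.564 times in the colon-labelled library (0.372 to 0.879) and 1.03 times in the kidney-labelled (0.601 to 1.87). Sftpd had no reads in the brain-labelled library, where the interval began at 5.56. Against Ager the value was 3.15 in the kidney-labelled library (2.31 to 4.29) and 1.75 in the brain-labelled (1.38 to 2.22). No interval against Sftpc, Sftpa1, Sftpb, Sftpd, Ager or the type 2 marker Lamp3 lay below 1 in either library. The type 2 markers Abca3, Napsa and Slc34a2 went the other way there, at 0.678% to 37.2% of their lung-labelled levels. In the heart-labelled library Scgb1a1 stood at 0.341 times against Sftpb (0.260 to 0.456). The direction thus rests on the mRNA chosen. Against the club cell enzymes Scgb1a1 was lower in 4 of the 5 libraries. Relative to Cyp2f2 it stood at 0.741 times in the heart-labelled library, 0.493 times in the colon-labelled, 0.186 times in the kidney-labelled and 0.405 times in that labelled small intestine. The brain-labelled library was the exception, with 3.59 times the percent of Cyp2f2 (2.32 to 5.76) and 1.84 times that of Cbr2 (1.41 to 2.42). Relative to Cbr2 the other 4 libraries lay between 0.259 and 0.620 times, and every interval of these 8 values ended below 1.

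**Figure D3:**
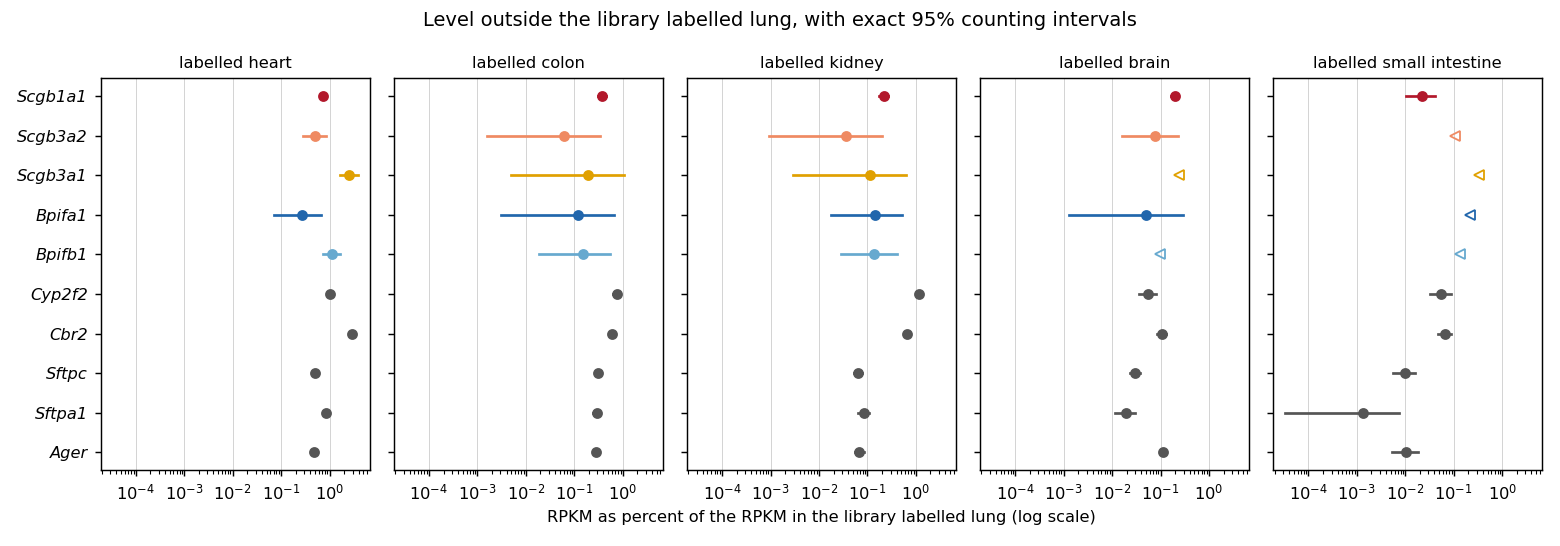
RPKM in each of the other 5 libraries as a percent of the RPKM in the lung-labelled library (log scale), for the 5 mRNAs and for Cyp2f2, Cbr2, Sftpc, Sftpa1 and Ager. Bars are exact 95% counting intervals, and open triangles stand at the level of 3 reads where an mRNA had 0 reads. Scgb1a1 lies to the right of Sftpc in the kidney-labelled and brain-labelled panels, and Scgb3a1 to the right of Scgb1a1 in the heart-labelled panel. Sftpb and Sftpd, which do not share the position of Sftpc, are not drawn.

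Most relatives in the same named families had few or no reads. The annotation holds 34 protein-coding genes named Scgb, many of them near-identical copies whose multi-mapped reads were left out by the authors. Of these, 7 were listed and 4 had at least 10 reads in any library, namely the 3 secretoglobins above and Scgb1c1, which had 7.72 RPKM (18 reads) in the heart-labelled library and none elsewhere. Of the 13 Bpif genes in the 446 kb cluster on chromosome 2, Bpifa1 and Bpifb1 were the only ones with at least 10 reads in a library, and none of the other 11 had more than 2 reads. Bpifa5 (1 read) lies between them and Bpifb5 (1 read) directly downstream. Among the more distant relatives, the phospholipid transfer protein Pltp was an exception, with 265 RPKM in the lung-labelled library, above Bpifa1 and Bpifb1, and between 9.91 and 34.2 RPKM elsewhere. The lipopolysaccharide-binding protein Lbp had 11.2 RPKM in the lung-labelled library and between 2.54 and 6.46 RPKM elsewhere, and Bpi had 4 reads, all in the heart-labelled library.

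Among 18 genes known from club cells, 17 had at least 10 reads and 13 of these were highest in the lung-labelled library, as were 24.5% of all mRNAs tested (12 of 17 and 16.3% with median-of-ratios scaling). Of the 17, 5 passed 10-fold over every other library, as did 1.68% of all mRNAs tested. These 5 were Nkx2-1 (98.1-fold), the transcription factor of lung epithelium, Cyp2f2 (86.5-fold), a cytochrome P450 of club cells, the carbonyl reductase Cbr2 (35.0-fold), the GABA receptor subunit Gabrp (27.6-fold at the floor) and haptoglobin, Hp (21.5-fold). The densest of the list were Cbr2 with 12542 RPKM and Cyp2f2 with 2942 RPKM, followed by the retinal dehydrogenase Aldh1a1 with 847 RPKM, Cyp4b1 with 469 RPKM and Hp with 344 RPKM. Aldh1a1 and Cyp4b1 were next highest in the brain-labelled library, at 167 and 134 RPKM. The median log2 fold over the highest other library was 1.98 for the list and -1.58 over all mRNAs tested. Not all of the list was seen, since Creb3l1, Chad and Lypd2 had no reads in the lung-labelled library and Cldn10 had 1.

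Mucous and gland genes were mostly not highest in the lung-labelled library. Of 13 such genes, 11 had at least 10 reads, and 3 passed 10-fold, as did 1.68% of all mRNAs tested. The 3 were the gel-forming mucin Muc5b, the trefoil factor Tff2 and lactoferrin, Ltf. Muc5b had 11.9 RPKM (1329 reads) in the lung-labelled library and 0.200 RPKM (13 reads) in the colon-labelled, a 59.6-fold difference. Tff2 had 46.1 RPKM (138 reads) in the lung-labelled library and no reads in any other, which makes it at least 26.8-fold higher. Ltf had 114 RPKM against 3.55 RPKM in the brain-labelled library. The other 8 were highest in the kidney-labelled or brain-labelled libraries, which carried the markers of colon and small intestine. Their low folds do not by themselves show absence from the lung-labelled library. Reg3g had 472 RPKM (1904 reads) there, more than Scgb3a1, against 4815 RPKM in the brain-labelled library. Agr2, which folds mucins, had 1 read in the lung-labelled library and 1884 RPKM in the kidney-labelled, and Muc5ac and Spdef, the mucin and the transcription factor of goblet cells, had no reads in the former. The median log2 fold of the list was -4.84, against -1.58 over all mRNAs tested.

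Markers of the other epithelial cells of the lung were present to different degrees. All 6 markers of ciliated cells were highest in the lung-labelled library, from 8.09 RPKM of Foxj1 to 1494 RPKM of Tppp3, and 2 passed 10-fold (Ccdc153 at 62.2-fold and Dnah5 at 13.7-fold, of which 1 still passed with median-of-ratios scaling). The share of all mRNAs highest in that library was the 24.5% given above, and the share past 10-fold was 1.68%. Of the 8 markers of alveolar type 2 cells, 5 passed, with a summed level of 55911 RPKM there and between 57.5 and 3318 RPKM elsewhere. Slc34a2 (2.69-fold) and Abca3 (1.34-fold) did not pass. Napsa was lower in the lung-labelled library, at 387 RPKM against 3049 RPKM in the colon-labelled, which carried the markers of kidney. Of the 5 markers of alveolar type 1 cells, 3 passed, with a summed level of 14165 RPKM there and between 86.3 and 529 RPKM elsewhere. Ager alone gave 12635 RPKM of that sum. Pdpn (2.86-fold) and Hopx (1.12-fold) did not pass, and Hopx had 437 RPKM in the heart-labelled library. Basal cell markers were near 0, with 24 reads of Krt5, 1 read of Trp63 and none of Krt14. The neuroendocrine markers Calca and Resp18 had no reads in the lung-labelled library.

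**Figure D4:**
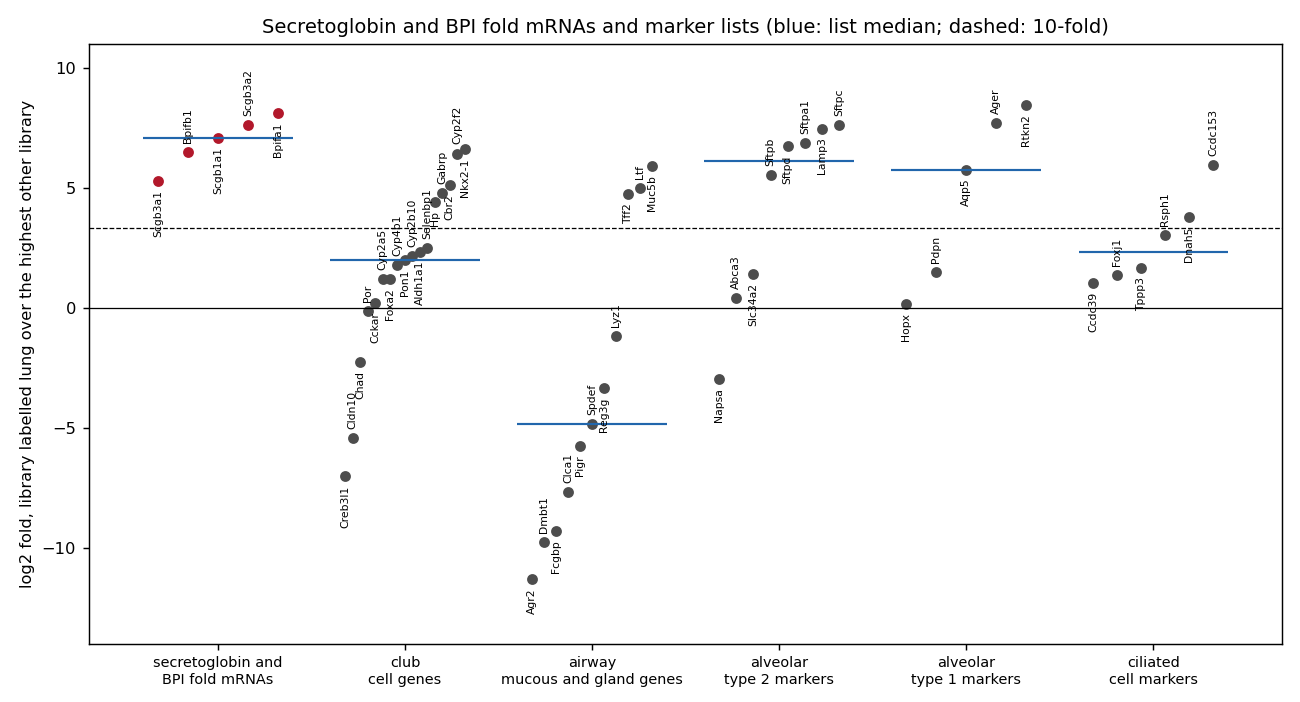
The log2 fold of the lung-labelled library over the highest other library for the 5 mRNAs and for 5 marker lists, 1 point per mRNA with at least 10 reads over the 6 libraries (libraries under 3 reads set at 3 reads). Blue lines are list medians, at 1.98 for club cell genes and -4.84 for mucous and gland genes. The median over all mRNAs tested, -1.58, is not drawn, and the dashed line marks 10-fold.

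The mRNAs with the most similar pattern were found by the root mean square difference of the log2 folds of the lung-labelled library over each of the 5 others. For Scgb1a1 and Scgb3a2 they were sought among 1437 mRNAs with at least 1000 reads in that library, and for Scgb3a1, Bpifa1 and Bpifb1 among 6992 with at least 100 reads, so the neighbours of these groups come from different pools. For Scgb1a1, the nearest was Ager, at 1.01, followed by Cldn18, a tight junction protein of alveolar cells, at 1.33, and Chil3, a chitinase-like protein of macrophages, at 1.33. Cldn18 and Chil3 were also among the 3 nearest to Scgb3a2 (0.40 and 0.68), to Bpifa1 (0.86 and 0.84) and to Bpifb1 (0.26 and 0.34). Scgb3a2 and Bpifb1 lay at 0.58 from each other, which made Bpifb1 the second nearest to Scgb3a2. Scgb3a1 was nearest to the neutrophil protein S100a9, at 0.30, and to Sftpb, at 0.81, and the nearest of the other 4 was Bpifb1, at 1.29. Where an mRNA had fewer than 3 reads the floor sets the fold, so those folds follow the depth of the libraries and the CDS length.

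Codon usage, which the study examined in these tissues, did not unite the 5 mRNAs. The share of synonymous codons ending in G or C was 59.8% in Scgb1a1, 60.0% in Scgb3a1, 44.9% in Scgb3a2, 53.3% in Bpifa1 and 69.9% in Bpifb1, against a median of 58.9% over 18154 CDSs. Scgb3a2 lay at percentile 15.7 and Bpifb1 at percentile 83.6 of all CDSs, with the others between them. Scgb1a1, which had the highest ribosome density of the 5, was close to the middle, at percentile 52.5. The start context ANNATGG or GNNATGG was found in Bpifb1 only, and in 42.9% of all CDSs with the bases before the start.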

How the data were processed

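Ribo-seq libraries of 6 mouse tissues were used, 1 per label. According to the Methods, written for the macrophage libraries and taken to hold here, the authors removed adapters with Cutadapt and reads under 15 nt, aligned the rest by STAR to 1 mRNA per gene, that of the longest CDS (Ensembl GRCm39 release 107), and left out reads that mapped repeatedly or had more than 2 mismatches. Versions are not given in the sources used here. The authors deposited RPKM values per mRNA. An mRNA that takes many reads lowers the RPKM of all others: Kri1 took between 0.400% (lung-labelled) and 22.1% (kidney-labelled) of reads.

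Reads were recovered as RPKM times CDS length, where 100% of values came within 0.01 of a whole read, and depth limits low levels (3 reads per kb of CDS are between 0.282 and 0.666 RPKM). Symbols were found for 18424 of 18437 mRNAs in GENCODE M39, a later annotation of GRCm39. Wilson intervals were used for shares and exact intervals of the ratio of 2 Poisson counts for folds, at 95%, and libraries under 3 reads were set at the RPKM of 3 reads in the fold over the highest other library and in bounds for 0 reads. No test was made with 1 library per label. Recovery of reads and of known folds was tested on simulated data.

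The 5 mRNAs, the lists and the rule for named genes (these mRNAs, their families, the densest and the highest elsewhere of each list, the label markers and the 5 nearest mRNAs) were chosen with earlier results of these data known. The promoter motifs were chosen after the files were read. Alternatives covered scaling, floor, pseudocount, thinning and the libraries compared. Values were computed in Python 3.11.15 (pandas 2.3.3, numpy 2.4.6), intervals in scipy 1.17.1 and plots in matplotlib 3.10.9.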

Additional observations from a re-analysis of the deposited data

How the results depend on the processing

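The 5 mRNAs were higher in the lung-labelled library than in all others under each of 8 alternatives, with folds between 25.5 and 920, and all stayed past 10-fold under a pseudocount of 1 RPKM, median-of-ratios scaling and thinning. Of 40 alternative folds, 28 stayed within the counting interval of the reported value. Not all of these could change. A floor of 1 read acted on Bpifa1 only, giving 377. Leaving out the heart-labelled library left Bpifa1 at 277, which the floor in the colon-labelled library sets. Median-of-ratios scaling moved Scgb1a1 to 86.9, Scgb3a1 to 25.5 and Bpifb1 to 58.5, by construction of the lower scale. Comparing with the median of the other 5 libraries in place of the highest gave 465 for Scgb1a1, 293 for Scgb3a1, 920 for Scgb3a2 and 731 for Bpifb1. Leaving out the heart-labelled library gave 268 for Scgb1a1 and, with the next libraries of fewer than 3 reads set at 3 reads, 174 for Scgb3a1, 546 for Scgb3a2 and 434 for Bpifb1. Thinning to the lowest total gave 143 for Bpifb1. At 100-fold, 3 of the 5 passed, and 2 with median-of-ratios scaling, under which Scgb3a2 stood at 128. The share of all mRNAs past 10-fold was 0.991% with the pseudocount and 1.07% with median-of-ratios scaling. The uniquely mappable length equalled the CDS length for all 5 mRNAs, so that alternative could not change their ratios. No paired analysis was possible because each label has 1 library.

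Levels under about 3 reads have no order. Whether an animal, a dissection or a library sets any difference cannot be told apart with 1 library per label, and with the labels of 4 libraries in doubt, the tissue behind a low level was not tested.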

Other observations

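Of the 16 mRNAs at least 100-fold higher in the lung-labelled library than in each other library, 13 were not airway secretory proteins of the list above. With libraries under 3 reads set at 3 reads, the highest fold, 353, was that of Rtkn2, a marker of alveolar type 1 cells, with 229 RPKM against 0.650 RPKM in the highest other library. The group also held Sftpc, Sftpa1, Sftpd and Lamp3 of alveolar type 2 cells, Ager and Cldn18, the chemokine Cxcl15 (192-fold), the chitinase-like protein Chil3 (115-fold) and the ribonuclease Ear2. Pierce1, a protein of motile cilia, was 154-fold higher with 225 RPKM, and Sec14l3 was 132-fold higher with 1692 RPKM, more than Scgb3a2. Prx, a scaffold protein known from Schwann cells and lung endothelium, completed the list at 103-fold.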
